A study of Mus musculus with 6 samples.

Results

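G protein-coupled receptors are the membrane proteins through which myeloid cells sense complement fragments, lipids, nucleotides, amines and metabolites. In this table of expression values from the spleens of old mice, 58 of 8191 genes were such receptors, chosen by symbol alone: the numbered *Gpr* genes and the named receptor families for nucleotides (*P2ry*, *Adora*), prostanoids (*Ptger*, *Ptgir*), chemoattractants (*Ptafr*, *C3ar*, *C5ar*, *Ltb4r*, *Cysltr*), lysophospholipids (*S1pr*, *Lpar*), amines (*Hrh*, *Adrb*), metabolites (*Ffar*) and proteases (*F2r*), together with the adhesion receptors (*Adgr*) other than the macrophage marker *Adgre1*. The numbered group held 19 genes, the adhesion receptors 10, the lysophospholipid receptors 9, the nucleotide and chemoattractant receptors 5 each, the amine receptors 4, the prostanoid receptors 3, the metabolite receptors 2 and the protease-activated receptors 1. No formyl peptide (*Fpr*) or hydroxycarboxylic acid (*Hcar*) receptor was analysed here.

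A receptor of this kind crosses the membrane in a bundle of helices and, when its ligand binds, switches on a G protein made of alpha, beta and gamma subunits. The alpha subunit then raises or lowers cyclic AMP, activates phospholipase C or acts on the cytoskeleton, while receptor kinases and arrestins end the signal. In neutrophils and monocytes these receptors guide migration and exit from bone marrow and spleen, and in tissue macrophages many of them sense nucleotides and lipids released by other cells. Some genes with a *Gpr* symbol encode membrane proteins of the Golgi apparatus or lysosome (*Gpr89*, *Gpr107*, *Gpr137b*, *Gpr155*) and are kept here by their name.

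The RNA came from splenic myeloid-derived suppressor cells (MDSCs), immature myeloid cells that restrain T cells, taken without culture from old mice that were wild type (WT), lacked the tumour necrosis factor receptor TNFR1 (*Tnfr1*-/-) or lacked TNFR2 (*Tnfr2*-/-), all of BALB/c background and otherwise untreated. The cells of several mice were pooled for a sample in each independent experiment, and the question was what the loss of either receptor does to aged MDSCs. There were 2 samples of each genotype, so p-values measure only the spread between 2 pools.

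Several facts of the whole table touch every result below. The values were FPKM (expression per length of transcript and per size of library), with no counts, so the depth behind a value is unknown. Every one of the 8191 genes had a p under 0.05 in a one-way analysis of variance over the 3 genotypes when it was recomputed, so the table holds only genes already chosen for a difference. Summed FPKM was 344714 and 346870 in the WT samples, 134343 and 133604 in *Tnfr1*-/- and 148956 and 155248 in *Tnfr2*-/-. Changes against WT are given as deposited and, for the members that matter most, also with median-ratio size factors, which set the typical gene equal across samples. The WT values were also written with up to 10 significant digits and those of the knockouts with up to 6, and a difference in how the WT values were computed cannot be told apart from genotype in any comparison with WT. Of 12 macrophage markers 11 were listed and all 11 were called lower in both knockouts as deposited. With median-ratio size factors 9 were called lower in *Tnfr2*-/- and 8 in *Tnfr1*-/-. The 11 summed to 3751 and 3853 FPKM in WT against 290 to 405 in the 4 knockout samples. The 3 of 13 neutrophil markers that were listed (*Retnlg*, *Mmp9*, *Csf3r*) moved the other way, from a summed 15.4 and 13.7 FPKM in WT to 3070 and 2732 in *Tnfr1*-/- and 2450 and 1522 in *Tnfr2*-/-. The 4 of 6 listed B cell markers summed to 46.5 and 46.9 FPKM in WT and 167 to 382 in the knockouts. As deposited, 4 of the 5 listed monocyte markers, of 8 in the list, were called higher in both knockouts and 1 lower. With median-ratio size factors 4 monocyte markers were called higher and 0 lower in each. The 5 monocyte markers summed to 247 and 261 FPKM in WT, 263 and 315 in *Tnfr1*-/- and 571 and 647 in *Tnfr2*-/-. The summed FPKM in WT and over the knockouts was 1419 and 1499 against 145 to 243 for 6 of 8 dendritic cell markers, 74.1 and 76.5 against 4.26 to 23.1 for 7 of 7 eosinophil, basophil and mast cell markers, with *Epx* at 0 in both *Tnfr2*-/- samples, and 32.7 and 36.4 against 20.1 to 43.0 for 3 of 7 T cell markers. The T cell sum hides opposite changes: of the 3 markers, 2 were higher and 1 lower in *Tnfr1*-/-, and 1 was higher and 1 lower in *Tnfr2*-/-. With median-ratio size factors 2 were higher and 1 lower in each knockout. Of 8 erythroid and platelet markers only *Pf4* was listed, at 104 and 118 FPKM against 3.12 to 4.3. *Ly6g*, *Ly6c2* and *Itgam*, which define these cells in mice, were not analysed here. *Tnfrsf1b*, which encodes TNFR2, was at 112 and 115 FPKM in WT, 47.8 and 69.6 in *Tnfr1*-/- and 11.3 and 14.3 in *Tnfr2*-/-. In bulk samples such as these, fewer cells of a type and less RNA per cell cannot be told apart, and the part of cell make-up in the receptor values was not tested.

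The members that carried most of the summed FPKM were not the same in WT and in the knockouts. In both WT samples the leading genes were *Gpr137b* at 100 and 84.6 FPKM, *P2ry14* at 51.5 and 48.1, *P2ry6* at 44.1 and 44.5 and *C3ar1* at 22.0 and 21.4. In all 4 knockout samples the leading gene was *Adgre5*. It alone made up 24.7% to 29.0% of the summed FPKM of the members, against 3.06% and 3.19% in WT. *C5ar1* ranked next in both *Tnfr1*-/- samples and in *Tnfr2*-/- replicate 1, but not in *Tnfr2*-/- replicate 2. *Adgre5* was the 1 gene among the 10 highest of WT that was also among the 10 highest of a knockout, whereas 8 genes were shared by the 10 highest of *Tnfr1*-/- and of *Tnfr2*-/-. The summed FPKM of all 58 genes ran against the total of the table: it was 472 and 454 in WT, 663 and 798 in *Tnfr1*-/- and 818 and 816 in *Tnfr2*-/-. By family, the numbered *Gpr* genes made up 41.4% and 40.4% of the summed FPKM in WT and 14.5% to 16.5% in the knockouts. Much of that WT share came from organelle proteins kept by their name: *Gpr137b* alone made up 21.3% and 18.6%, and *Gpr107* 4.08% and 4.25%. The nucleotide receptors made up 22.9% and 23.0% in WT against 4.25% to 5.23%, and the adhesion receptors 5.61% and 5.57% against 29.9% to 40.7%. These shares are taken within a sample, so no scaling between samples enters them.

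**Figure D1:**
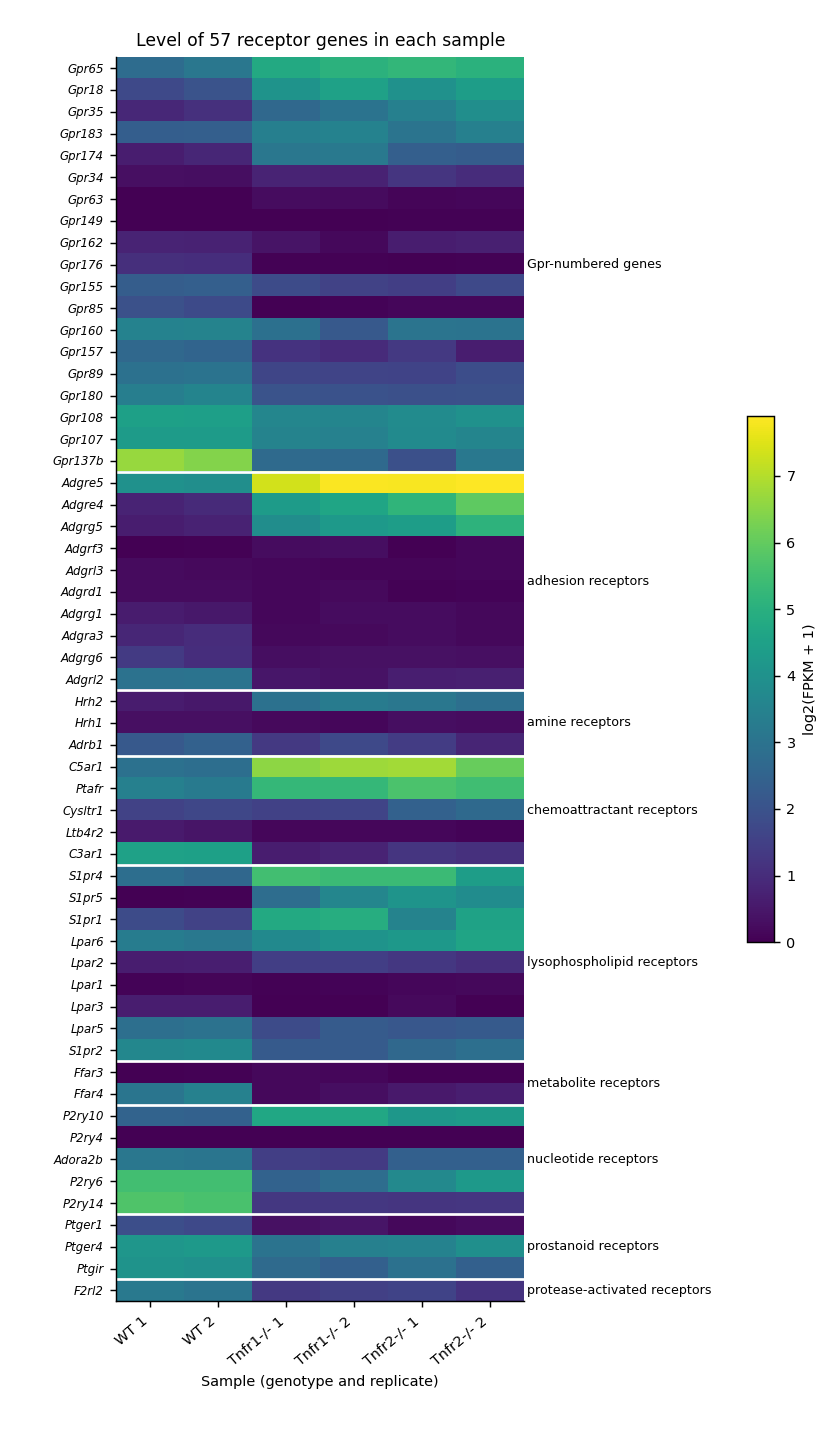
Heat map of the level of 57 of the 58 receptor genes, as log2(FPKM + 1), in the 6 samples (columns), with genes grouped by family (rows). *Gpr137b*, *P2ry14* and *P2ry6* are brightest in the 2 WT columns, and *Adgre5* in the 4 knockout columns.

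**Figure D2:**
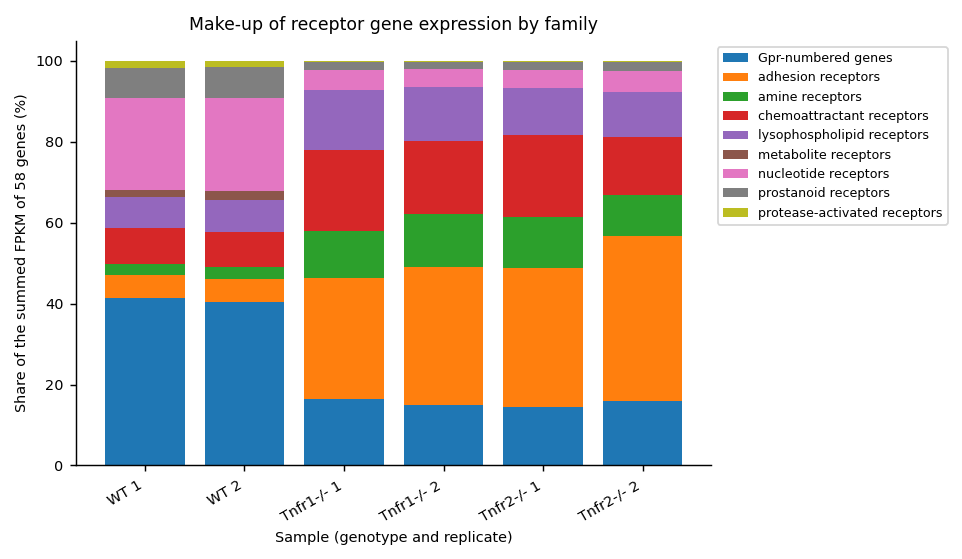
Stacked bars of the share of the summed FPKM of the 58 genes (vertical axis, percent) that each family takes in each sample. The adhesion receptors take 5.61% and 5.57% in WT and 29.9% to 40.7% in the knockouts.

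A gene was called changed when its Benjamini-Hochberg adjusted p in limma, over all 8191 genes, was under 0.05 and its fitted change in FPKM + 1 was over 1.5-fold. In *Tnfr2*-/- against WT, 19 receptor genes were called higher, which is 32.8% of the members against 13.6% of all genes, and 22 were called lower, 37.9% against 57.1%. In *Tnfr1*-/- against WT, 18 were called higher, 31.0% against 14.1%, and 26 lower, 44.8% against 60.7%. The 2 comparisons share their WT samples. The median log2 change of the members was -0.14 in *Tnfr2*-/- and -0.25 in *Tnfr1*-/-, beside -0.74 and -0.83 over all genes. With median-ratio size factors the medians became 0.10 and 0.036, beside -0.03 and -0.03, and each comparison had 20 members higher and 11 lower, against 21.8% higher and 21% lower of all genes in *Tnfr2*-/- and 23.3% and 22.1% in *Tnfr1*-/-. With quantile normalization 20 were higher and 12 lower in *Tnfr2*-/-, against 20.8% and 22.8% of all genes, and 20 and 13 in *Tnfr1*-/-, against 21.4% and 25.3%. Without any test, both *Tnfr2*-/- samples lay above both WT samples in 23 members and below both in 33, against 21.1% and 77.2% of all genes, and both *Tnfr1*-/- samples in 22 and 33, against 21.7% and 77.3%. In both knockouts 17 members were called higher than WT, and all 17 were also called with both other scalings. In both 22 were called lower, of which 8 were called with all the scalings (*Adgrl2*, *C3ar1*, *F2rl2*, *Ffar4*, *Gpr137b*, *Gpr85*, *P2ry14* and *Ptger1*). How many of all 8191 genes were called in both knockouts or under all the scalings was not counted, so these counts describe the members alone. A further 12 members were called against WT in neither knockout, and these 12 were all under 1 FPKM in every sample. With 1 added to each FPKM, a gene near 0 in every sample cannot pass the 1.5-fold threshold. For the lowest of the 12 no call was therefore possible. With 0.1 added in place of 1, 21 members were higher and 27 lower in *Tnfr2*-/-, and 22 and 29 in *Tnfr1*-/-. The shares of all genes called at that setting were not counted. *Lpar3* was the only other member under 1 FPKM throughout.

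**Figure D3:**
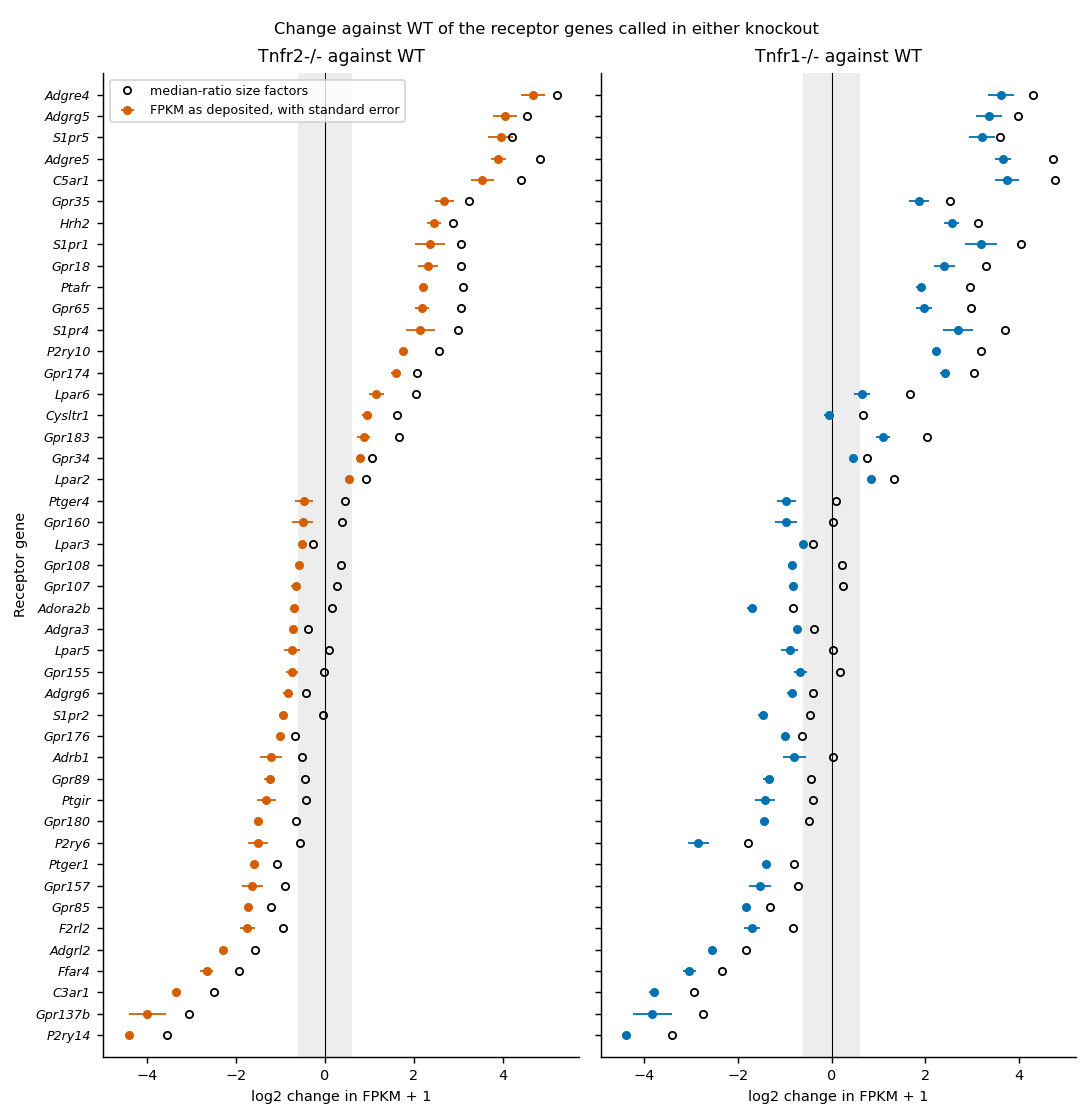
Log2 change in FPKM + 1 (horizontal axis) of the receptor genes called against WT in either knockout, 1 gene left out, as deposited with its standard error (filled) and with median-ratio size factors (open). The grey band marks changes under 1.5-fold, and the 16 genes shown that were higher in both knockouts lie right of it under both scalings.

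For 8 members the sequence just before the start of the gene is shown, 6 of them chosen after the motif matches were seen because they carry a match, and 2 (*Adgre4* and *C5ar1*), among those with the largest rises, that carry none. Each is the 100 bases before a RefSeq start on GRCm38.p6, read 5′ to 3′ on the strand of the gene, with capitals marking the core of the site read by PU.1, a factor of myeloid cells (GAGGAA, or TTCCTC on the other strand), and the GC box (GGGCGG, or CCGCCC).
*Hrh2*, chr13:54192029-54192128, plus strand: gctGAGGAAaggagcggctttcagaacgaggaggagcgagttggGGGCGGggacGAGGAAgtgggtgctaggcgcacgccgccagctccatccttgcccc
*Gpr65*, chr12:98268535-98268634, plus strand: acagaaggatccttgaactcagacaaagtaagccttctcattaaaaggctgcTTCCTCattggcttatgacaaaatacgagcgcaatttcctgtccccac
*S1pr5*, chr9:21248444-21248543, minus strand: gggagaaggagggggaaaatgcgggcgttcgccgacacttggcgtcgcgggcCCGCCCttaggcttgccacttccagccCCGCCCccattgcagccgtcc
*Adgre4*, chr17:55749884-55749983, plus strand: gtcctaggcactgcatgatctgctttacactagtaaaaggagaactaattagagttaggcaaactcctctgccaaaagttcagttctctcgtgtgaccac
*C5ar1*, chr7:16259339-16259438, minus strand: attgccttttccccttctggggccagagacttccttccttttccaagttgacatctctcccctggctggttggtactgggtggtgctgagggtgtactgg
*P2ry14*, chr3:59153493-59153592, minus strand: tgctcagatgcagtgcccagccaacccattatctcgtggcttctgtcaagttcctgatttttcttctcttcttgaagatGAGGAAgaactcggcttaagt
*C3ar1*, chr6:122856158-122856257, minus strand: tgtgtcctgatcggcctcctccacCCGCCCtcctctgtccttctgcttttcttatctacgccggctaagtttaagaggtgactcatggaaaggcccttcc
*Adora2b*, chr11:62248884-62248983, plus strand: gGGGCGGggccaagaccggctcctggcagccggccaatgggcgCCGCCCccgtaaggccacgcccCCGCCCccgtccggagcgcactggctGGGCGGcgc

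*Hrh2*, *Gpr65*, *S1pr5*, *Adgre4* and *C5ar1* were higher in both knockouts, and *P2ry14*, *C3ar1* and *Adora2b* were lower in both as deposited. The PU.1 core stood in this window of 9 of the 45 members with a RefSeq start (20.0%), against 11.2% of 27025 genes. It was found in 4 of 14 members higher in both knockouts (28.6%) and in 2 of 19 lower in both (10.5%). The GC box stood in 20 of the 45 (44.4%), against 27.3% of all genes, in 3 of the 14 (21.4%) and in 10 of the 19 (52.6%). The TATA box (TATAAA) was in 2 of the 45 (4.44%, against 6.57%) and the cyclic AMP response element (TGACGTCA) in 1 (2.22%, against 1.36%). Both strands were searched, and the matches printed here do not overlap each other. A match describes the letters of the window and is not a measured site.

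Among the chemoattractant receptors, the 2 complement receptors moved in opposite directions. *C5ar1*, the receptor for the complement fragment C5a that draws neutrophils to inflamed tissue, was at 6.69 and 6.19 FPKM in WT, 93.7 and 105 in *Tnfr1*-/- and 111 and 66.0 in *Tnfr2*-/-. Every knockout sample lay above both WT samples, with a log2 change of 3.75 (SE 0.25, adjusted p = 0.00014) in *Tnfr1*-/- and 3.54 (SE 0.25, adjusted p = 0.00019) in *Tnfr2*-/-, while the 2 *Tnfr2*-/- samples enclosed those of *Tnfr1*-/-. The changes were 4.77 and 4.41 with median-ratio size factors. *C3ar1*, which binds C3a, was at 22.0 and 21.4 FPKM in WT, 0.537 and 0.714 in *Tnfr1*-/- and 1.32 and 1.15 in *Tnfr2*-/-. Its groups did not overlap, and the log2 change was -3.81 (SE 0.10, adjusted p = 1.2e-05) and -3.34 (SE 0.10, adjusted p = 1.8e-05), or -2.94 and -2.50 with median-ratio size factors. The ratio of *C5ar1* to *C3ar1* within a sample, which no scaling can move, was 0.304 and 0.290 in WT, 175 and 147 in *Tnfr1*-/- and 84.2 and 57.1 in *Tnfr2*-/-.

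*Ptafr*, the receptor for platelet-activating factor, was at 9.84 and 8.59 FPKM in WT, 37.0 and 37.3 in *Tnfr1*-/- and 49.3 and 43.5 in *Tnfr2*-/-. The 3 genotypes did not overlap, and the log2 change against WT was 1.90 (SE 0.10, adjusted p = 6.7e-05) and 2.21 (SE 0.10, adjusted p = 5.1e-05), or 2.95 and 3.11 with median-ratio size factors. *Ltb4r2*, the low-affinity leukotriene B4 receptor, was under 1 FPKM in every sample and was not called. *Cysltr1*, which binds the cysteinyl leukotrienes, is described below with the differences between the knockouts.

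The largest receptor transcript of the knockouts belonged to the adhesion class, whose long extracellular parts bind matrix and neighbouring cells. *Adgre5*, the leukocyte adhesion receptor also called CD97 (chr8:83723251-83741326, minus strand), was at 15.1 and 13.9 FPKM in WT, 164 and 229 in *Tnfr1*-/- and 224 and 237 in *Tnfr2*-/-. All 4 knockout samples lay far above both WT samples, with a log2 change of 3.66 (SE 0.17, adjusted p = 5.3e-05) and 3.90 (SE 0.17, adjusted p = 5.0e-05), or 4.74 and 4.84 with median-ratio size factors. *Adgre4*, a relative of *Adgre1* found on myeloid cells, was at 0.741 and 0.927 FPKM in WT, 19.4 and 23.7 in *Tnfr1*-/- and 35.1 and 60.3 in *Tnfr2*-/-. It rose by 4.68 (SE 0.27, adjusted p = 0.00011) in *Tnfr2*-/- and 3.61 (SE 0.27, adjusted p = 0.00020) in *Tnfr1*-/-, and by 5.23 and 4.29 with median-ratio size factors. *Adgrg5* was at 0.565 and 0.675 FPKM in WT, 13.6 and 17.9 in *Tnfr1*-/- and 19.9 and 33.6 in *Tnfr2*-/-, and rose by 3.36 and 4.05 (SE 0.27), or 3.98 and 4.54 with median-ratio size factors. Both knockouts of *Adgre4* and *Adgrg5* lay clear of WT. *Adgre1*, the gene for F4/80 left out of the members, moved against its relatives: 95.9 and 109 FPKM in WT, 12.2 and 13.4 in *Tnfr1*-/- and 20.6 and 20.4 in *Tnfr2*-/-.

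The other adhesion receptors were low. *Adgrl2*, a latrophilin, was at 6.9 and 7.0 FPKM in WT and 0.311 to 0.630 in the knockouts, and changed by -2.56 (SE 0.06, adjusted p = 8.4e-06) in *Tnfr1*-/- and by -2.30 (SE 0.06, adjusted p = 1.1e-05) in *Tnfr2*-/-, or -1.83 and -1.58 with median-ratio size factors. *Adgra3* and *Adgrg6*, at 0.819 to 1.53 FPKM in WT, were called lower in both as deposited but not with median-ratio size factors. *Adgrd1*, *Adgrf3*, *Adgrg1* and *Adgrl3* were under 1 FPKM in all samples and were not called. *Adgrg1* lies 31.5 kb from *Adgrg5* on chromosome 8, and the ratio of *Adgrg5* to *Adgrg1* was 1.06 and 1.63 in WT and 87.2 to 251 in the knockouts.

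The lysophospholipid receptors, through which sphingosine 1-phosphate (S1P) and lysophosphatidic acid (LPA) steer the movement of leukocytes, split by subtype. *S1pr1*, the receptor that lets lymphocytes leave lymphoid organs, was at 2.49 and 1.92 FPKM in WT, 26.9 and 29.4 in *Tnfr1*-/- and 10.6 and 22.4 in *Tnfr2*-/-. *S1pr4*, a receptor of leukocytes, was at 6.17 and 5.23 FPKM in WT, 44.8 and 40.3 in *Tnfr1*-/- and 40.4 and 20.1 in *Tnfr2*-/-. *S1pr5*, known from the exit of natural killer cells and patrolling monocytes, was listed at 0 and 0.0216 FPKM in WT, 6.10 and 11.4 in *Tnfr1*-/- and 16.0 and 13.4 in *Tnfr2*-/-. All 3 were higher in every knockout sample than in WT. Their log2 changes were 3.19 (SE 0.35), 2.70 (SE 0.33) and 3.22 (SE 0.28) in *Tnfr1*-/- and 2.37 (SE 0.35), 2.15 (SE 0.33) and 3.96 (SE 0.28) in *Tnfr2*-/-, with adjusted p between 0.00019 and 0.0022, and no fold is given for *S1pr5* because WT was at or near 0. They were 4.05, 3.70 and 3.59 in *Tnfr1*-/- and 3.07, 3.0 and 4.21 in *Tnfr2*-/- with median-ratio size factors. *S1pr2*, which holds migrating cells back, ran the other way at 11.7 and 12.5 FPKM in WT, 3.72 and 3.79 in *Tnfr1*-/- and 5.36 and 6.36 in *Tnfr2*-/-. Its log2 change of -1.46 (SE 0.11, adjusted p = 0.00017) and -0.94 (SE 0.11, adjusted p = 0.00079) was not called with median-ratio size factors, where it was -0.47 and -0.05. Within a sample, *S1pr1* stood at 0.212 and 0.154 of *S1pr2* in WT, at 7.23 and 7.76 in *Tnfr1*-/- and at 1.97 and 3.53 in *Tnfr2*-/-. *S1pr2* and *S1pr5* lie 266 kb apart on chromosome 9.

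Of the LPA receptors, *Lpar6* was at 8.99 and 7.98 FPKM in WT, 12.4 and 15.5 in *Tnfr1*-/- and 17.5 and 23.2 in *Tnfr2*-/-, and was called higher in both (0.65 and 1.16, SE 0.18). The *Tnfr1*-/- call for *Lpar6* was lost without WT replicate 1 (0.73, adjusted p = 0.054), without WT replicate 2 (0.57, adjusted p = 0.093) and without *Tnfr1*-/- replicate 2 (0.50, adjusted p = 0.084). *Lpar5* was at 6.37 and 6.91 FPKM in WT and 2.49 to 3.83 in the knockouts, a deposited log2 change of -0.90 and -0.74 (SE 0.18) that turned to 0.04 and 0.08 with median-ratio size factors, and its call in *Tnfr2*-/- was lost without WT replicate 1 (-0.79, adjusted p = 0.050) or 2 (-0.69, adjusted p = 0.068). *Lpar2*, at 0.539 and 0.577 FPKM in WT, was called higher in *Tnfr1*-/- (1.79 and 1.77 FPKM, log2 change 0.83, SE 0.08) and had 1.44 and 1.11 FPKM in *Tnfr2*-/- (0.54, SE 0.08), where it missed the 1.5-fold threshold. On both other scalings *Lpar2* was called higher in *Tnfr2*-/- too (0.92, adjusted p = 0.0013, by median ratio and 1.11, adjusted p = 0.00028, by quantile). *Lpar3* and *Lpar1* did not reach 1 FPKM in any sample.

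**Figure D4:**
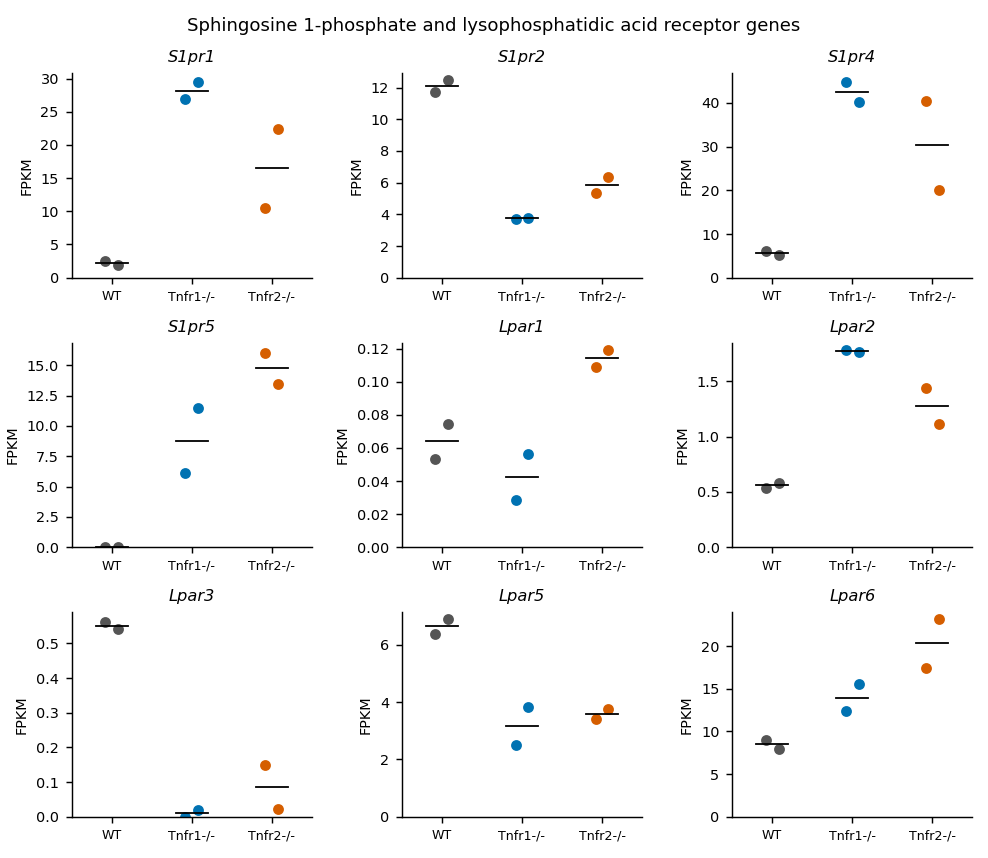
FPKM (vertical axis, from 0) of the 9 lysophospholipid receptor genes in the 3 genotypes, with a point for each sample and a line at the mean of the 2 samples. *S1pr1*, *S1pr4* and *S1pr5* are lowest in WT, and *S1pr2*, *Lpar3* and *Lpar5* are highest there.

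The nucleotide receptors, which read ATP breakdown products and sugar nucleotides outside the cell, included *P2ry14* and *P2ry6*, the highest members in WT after *Gpr137b*. *P2ry14*, the receptor for UDP-glucose (chr3:59113855-59153618, minus strand), was at 51.5 and 48.1 FPKM in WT, 1.45 and 1.41 in *Tnfr1*-/- and 1.35 and 1.40 in *Tnfr2*-/-. The 4 knockout samples lay close together, and the log2 change was -4.39 (SE 0.08, adjusted p = 6.4e-06) and -4.42 (SE 0.08, adjusted p = 6.8e-06), the largest fall of all members in each comparison. With median-ratio size factors it was -3.42 and -3.55. *P2ry6*, the UDP receptor of phagocytes, was at 44.1 and 44.5 FPKM in WT, 4.56 and 6.08 in *Tnfr1*-/- and 12.0 and 18.4 in *Tnfr2*-/-, a log2 change of -2.85 and -1.51 (SE 0.22). The call in *Tnfr2*-/- was lost with median-ratio size factors (-0.55), while that in *Tnfr1*-/- was kept (-1.79). *P2ry10*, a receptor for lysophosphatidylserine despite its name, was at 4.65 and 4.51 FPKM in WT, 24.8 and 25.5 in *Tnfr1*-/- and 17.1 and 18.5 in *Tnfr2*-/-, and rose by 2.23 and 1.75 (SE 0.07), or 3.19 and 2.57 with median-ratio size factors. *P2ry4* did not exceed 0.00861 FPKM. The ratio of *P2ry10* to *P2ry14* was 0.0904 and 0.0938 in WT and 12.6 to 18.1 in the knockouts.

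The amine receptors described here bind histamine and the catecholamines. *Hrh2*, the histamine receptor that raises cyclic AMP, was at 0.527 and 0.426 FPKM in WT, 6.76 and 8.79 in *Tnfr1*-/- and 7.71 and 6.44 in *Tnfr2*-/-, a rise of 2.56 and 2.45 (SE 0.15), or 3.13 and 2.88 with median-ratio size factors. *Adrb1*, the beta-1 receptor best known from the heart, was at 3.59 and 4.43 FPKM in WT against 0.760 to 2.35 in the knockouts, and was called lower as deposited and not with median-ratio size factors (0.04 in *Tnfr1*-/- and -0.51 in *Tnfr2*-/-). Its call in *Tnfr1*-/- was also lost without WT replicate 1 (-0.92, adjusted p = 0.070), WT replicate 2 (-0.68, adjusted p = 0.14) or *Tnfr1*-/- replicate 1 (-0.57, adjusted p = 0.13). *Hrh1* was at 0.104 to 0.264 FPKM and was not called.

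No prostanoid, metabolite or protease-activated receptor was called higher in a knockout. *Ptger4*, the prostaglandin E2 receptor that raises cyclic AMP, was at 16.7 and 17.8 FPKM in WT, 7.09 and 9.77 in *Tnfr1*-/- and 10.4 and 14.1 in *Tnfr2*-/-. It was called lower in *Tnfr1*-/- (-0.97, SE 0.20, adjusted p = 0.0059), where median-ratio size factors turned the change to 0.08, and not in *Tnfr2*-/- (-0.48, SE 0.20, adjusted p = 0.067). *Ptgir*, the prostacyclin receptor, was at 15.7 and 14.5 FPKM in WT and 4.33 to 6.77 in the knockouts, and was not called with median-ratio size factors in either. *Ptger1* was at 2.71 and 2.35 FPKM in WT and 0.132 to 0.372 in the knockouts, but its exons overlap another gene, so its reads could not be wholly assigned. *Ffar4*, a receptor for long-chain fatty acids, was at 7.43 and 9.99 FPKM in WT, 0.129 and 0.214 in *Tnfr1*-/- and 0.455 and 0.583 in *Tnfr2*-/-, a log2 change of -3.04 and -2.66 (SE 0.14). Both *Ffar4* falls were called under all scalings, at -2.33 and -1.94 with median-ratio size factors. *Ffar3*, for short-chain fatty acids, did not pass 0.122 FPKM. *F2rl2*, a thrombin co-receptor, was at 8.11 and 7.20 FPKM in WT and 1.24 to 1.98 in the knockouts, a log2 change of -1.71 and -1.74 (SE 0.17), or -0.82 and -0.95 with median-ratio size factors.

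The numbered *Gpr* genes fell into a rising set of immune cell receptors and, as deposited, a falling set that held the organelle proteins. *Gpr65*, a proton sensor, was at 5.90 and 7.67 FPKM in WT, 26.6 and 32.3 in *Tnfr1*-/- and 36.7 and 31.9 in *Tnfr2*-/-, a rise of 1.97 and 2.19 (SE 0.16), or 2.98 and 3.06 with median-ratio size factors. *Gpr18* was at 2.35 and 3.03 FPKM in WT and 14.8 to 21.8 in the knockouts, and *Gpr35* at 0.846 and 1.12 in WT, 5.38 and 7.12 in *Tnfr1*-/- and 9.76 and 13.9 in *Tnfr2*-/-. *Gpr183*, the oxysterol receptor that positions immune cells in the spleen and lies 36.8 kb from *Gpr18* on chromosome 14, was at 4.08 and 4.19 FPKM in WT and 7.21 to 10.4 in the knockouts. These 4 genes were called higher in both comparisons. *Gpr34*, a receptor for lysophosphatidylserine, was at 0.260 and 0.238 FPKM in WT, 0.709 and 0.702 in *Tnfr1*-/- and 1.30 and 1.02 in *Tnfr2*-/-, and was called higher in *Tnfr2*-/- (0.79, SE 0.07, adjusted p = 0.00033). Its change in *Tnfr1*-/- was 0.45 (SE 0.07, adjusted p = 0.0019), under the fold threshold, and was called on both other scalings (0.75, adjusted p = 0.0017, by median ratio and 0.88, adjusted p = 0.00035, by quantile), and the difference between the knockouts had an adjusted p of 0.071.

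*Gpr137b*, a lysosomal membrane protein (chr13:13357620-13394014, minus strand), had the highest level of all members in WT at 100 and 84.6 FPKM and stood at 5.60 and 5.47 in *Tnfr1*-/- and 2.78 and 8.01 in *Tnfr2*-/-. The log2 change was -3.83 and -4.0 (SE 0.41, adjusted p = 0.00061 in both), or -2.76 and -3.06 with median-ratio size factors. Of its 50-base windows 28.6% also occur in the pseudogene *Gpr137b-ps*, so its reads could not be wholly assigned. *Gpr85* was at 2.86 and 2.43 FPKM in WT and 0.0124 to 0.0907 in the knockouts and was called lower under all scalings. *Gpr107* and *Gpr108*, at 19.3 and 20.9 to 21.5 FPKM in WT and 10.2 to 14.8 in the knockouts, showed changes of -0.85 to -0.58 as deposited and of 0.22 to 0.36 with median-ratio size factors, so no direction is given for them. The call of *Gpr107* in *Tnfr2*-/- was lost without *Tnfr2*-/- replicate 2 (-0.56), that of *Gpr155* in *Tnfr1*-/- without *Tnfr1*-/- replicate 2 (-0.55), and that of *Gpr160* in *Tnfr1*-/- without WT replicate 1 (adjusted p = 0.058) or 2 (adjusted p = 0.064). *Gpr89*, *Gpr155*, *Gpr157*, *Gpr160*, *Gpr176* and *Gpr180* were at 1.03 to 10.7 FPKM in WT and were each called lower in at least 1 knockout as deposited, with *Gpr155* and *Gpr160* turning to 0.18 and 0.0236 in *Tnfr1*-/- with median-ratio size factors, whereas *Gpr63*, *Gpr149* and *Gpr162* were under 1 FPKM and not called.

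Reads of several members could not be told apart from those of an overlapping gene, because the strand setting of the library and counting is not given in the sources used here. Beyond *Ptger1* and *Gpr137b*, the share of 50-base windows also found in another gene was 23.8% for *Gpr89* (*Pdzk1*), 18.1% for *Gpr65* (*Gm47566*), 16.5% for *Adgre5* (*Ddx39*) and 14.4% for *Ptger4* (*Gm15937*), and at most 10% for the other 52 members.

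The direct comparison of the knockouts called 3 of the 58 receptor genes. *Adora2b* and *Cysltr1* were higher in *Tnfr2*-/- than in *Tnfr1*-/-, 3.45% of the members against 0.842% of all genes, and *Gpr174* was lower, 1.72% against 0.61%. At an unadjusted p under 0.05 there were 18 members higher (31.0%) and 8 lower (13.8%), against 15.9% and 8.01% of all genes. With the replicate number as a block no member was called, and 19 were higher and 7 lower at an unadjusted p under 0.05, against 13.9% and 7.41%. The median log2 change was 0.07 over the members and 0.06 over all genes. Median-ratio size factors gave 3 higher and 2 lower, against 1.09% and 1.45% of all genes, and quantile normalization 3 and 2, against 1.53% and 1.45%. Both *Tnfr2*-/- samples lay above both *Tnfr1*-/- samples in 24 members and below both in 12, against 34.9% and 16.1% of all genes.

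*Adora2b*, the low-affinity adenosine receptor (chr11:62248984-62266453, plus strand), was at 7.80 and 7.43 FPKM in WT, 1.75 and 1.52 in *Tnfr1*-/- and 4.36 and 4.35 in *Tnfr2*-/-. The 3 genotypes did not overlap, and the mean in *Tnfr2*-/- was 2.67 times that in *Tnfr1*-/-, a log2 change of 1.02 (SE 0.09, adjusted p = 0.028). *Adora2b* was below WT in both knockouts as deposited, whereas with median-ratio size factors it was lower in *Tnfr1*-/- (-0.82) and at 0.16 in *Tnfr2*-/-. *Cysltr1* (chrX:106574346-106603679, minus strand) was at 1.97 and 2.20 FPKM in WT, 1.85 and 2.07 in *Tnfr1*-/- and 4.50 and 5.46 in *Tnfr2*-/-, so that as deposited the *Tnfr1*-/- samples overlapped those of WT and the *Tnfr2*-/- samples lay above both. With median-ratio size factors *Cysltr1* was at 1.18 and 1.33 in WT and 2.42 and 2.80 in *Tnfr1*-/- and was called higher there too (0.68, adjusted p = 0.0025). The mean in *Tnfr2*-/- was 2.54 times that in *Tnfr1*-/- (log2 change 1.01, SE 0.11, adjusted p = 0.038). *Gpr174*, a lysophosphatidylserine receptor of lymphocytes (chrX:107255878-107296769, plus strand), was at 0.562 and 0.783 FPKM in WT, 7.73 and 8.20 in *Tnfr1*-/- and 4.20 and 3.92 in *Tnfr2*-/-. Its level was 1.96 times as high in *Tnfr1*-/- as in *Tnfr2*-/- (log2 change -0.83, SE 0.10, adjusted p = 0.038). The B cell marker sum was 382 and 318 FPKM in *Tnfr1*-/- and 167 and 299 in *Tnfr2*-/-, and the T cell marker sum 37.6 and 43.0 against 22.9 and 20.1. For monocyte markers it was 263 and 315 FPKM in *Tnfr1*-/- and 571 and 647 in *Tnfr2*-/-. Limma called 2 of the 5 listed monocyte and 2 of the 11 listed macrophage markers higher in *Tnfr2*-/-, and 0 lower in either list. Of the 6 listed dendritic cell markers 1 was called lower there. With median-ratio size factors 3 monocyte markers and 1 macrophage marker were called higher. At that setting 1 marker was called lower in each of the dendritic cell, T cell, and eosinophil, basophil and mast cell lists. The part of any of these cells in the receptor differences between the knockouts was not tested.

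These 3 calls did not hold under every alternative. Over the alternatives other than leaving out a single sample, the adjusted p ran from 0.011 to 0.15 for *Adora2b*, from 0.017 to 0.16 for *Cysltr1* and from 0.020 to 0.16 for *Gpr174*. Leaving out *Tnfr2*-/- replicate 1 kept these 3 calls, and leaving out any other single sample lost them. Over the fits with a sample left out, the log2 change ran from 0.96 to 1.09 for *Adora2b*, from 0.89 to 1.13 for *Cysltr1* and from -0.87 to -0.79 for *Gpr174*. *P2ry6* had the largest difference of all, 1.34 (SE 0.22), with 4.56 and 6.08 FPKM in *Tnfr1*-/- against 12.0 and 18.4 in *Tnfr2*-/-, and an adjusted p of 0.056 that became 0.044 with median-ratio size factors. *P2ry10*, 151 kb from *Gpr174* on the X chromosome, differed by -0.48 (SE 0.07, adjusted p = 0.051). The difference was 1.07 (SE 0.27, adjusted p = 0.11) for *Adgre4*, 0.82 (SE 0.21, adjusted p = 0.11) for *Gpr35* and -0.82 (SE 0.35, adjusted p = 0.24) for *S1pr1*, and a p above the threshold does not show that the knockouts were alike.

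**Figure D5:**
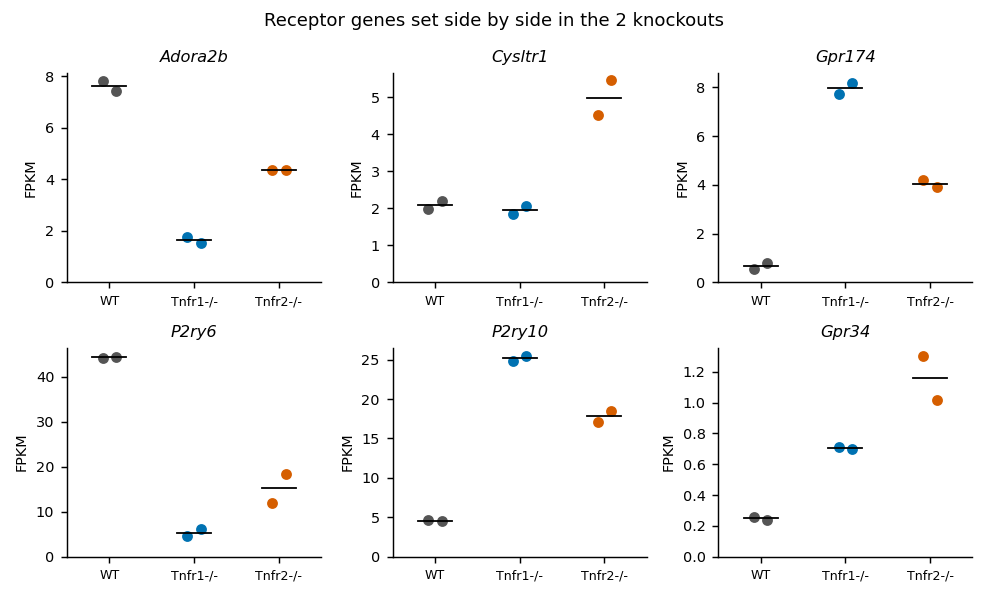
FPKM (vertical axis, from 0) of 6 receptor genes in the 3 genotypes, with a point for each sample and a line at the mean of the 2 samples. The *Tnfr2*-/- points lie above the *Tnfr1*-/- points for *Adora2b*, *Cysltr1*, *P2ry6* and *Gpr34* and below them for *Gpr174* and *P2ry10*, of which *Adora2b*, *Cysltr1* and *Gpr174* were called.

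The genes that carry the receptor signal onward, and those that make the ligands, were counted from lists of the pathway. As given above, 14.1% of all genes were higher and 60.7% lower in *Tnfr1*-/-, and 13.6% and 57.1% in *Tnfr2*-/-, and the lists are small. With median-ratio size factors these shares were 23.3% and 22.1% in *Tnfr1*-/- and 21.8% and 21% in *Tnfr2*-/-. Of 12 alpha subunit genes 6 were listed, with 0 higher and 5 lower in each knockout against WT. *Gna15*, the promiscuous alpha subunit of blood cells, was at 60.6 and 62.4 FPKM in WT and 3.16 to 6.14 in the knockouts, a log2 change of -3.51 and -3.52 (SE 0.32). With median-ratio size factors 2 alpha subunit genes were lower in each, and 1 was higher in *Tnfr1*-/- and 0 in *Tnfr2*-/-. Of 9 listed beta and gamma subunit genes, 2 were higher in each knockout and 4 (*Tnfr1*-/-) or 5 (*Tnfr2*-/-) lower, while median-ratio size factors gave 3 higher in each and 1 and 0 lower. *Gng10*, a gamma subunit, was at 39.9 and 43.1 FPKM in WT and 63.3 to 97.3 in the knockouts. Of 9 listed regulators of G protein signalling, 4 were higher in *Tnfr1*-/- and 3 in *Tnfr2*-/-, with 4 lower in each, against 4 higher and 0 lower in each with median-ratio size factors. *Rgs2*, which shortens signals through Gq, was at 23.8 and 25.4 FPKM in WT, 85.6 and 117 in *Tnfr1*-/- and 150 and 165 in *Tnfr2*-/-, and rose by 1.98 and 2.63 (SE 0.17).

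Of 5 listed receptor kinases and arrestins, 1 was higher in *Tnfr1*-/- and 2 in *Tnfr2*-/-, with 1 lower in each, against 3 higher and 0 lower in each with median-ratio size factors. *Grk6*, a receptor kinase of leukocytes, was at 24.8 and 25.0 FPKM in WT and 58.2 to 76.3 in the knockouts (1.52 and 1.21, SE 0.07), and *Arrb1* at 30.3 and 27.9 in WT and 11.1 to 16.8 in the knockouts. Of 15 listed cyclic AMP enzymes and kinases, 5 were higher and 8 lower in *Tnfr1*-/- and 4 and 7 in *Tnfr2*-/-, or 6 and 2 and then 5 and 3 with median-ratio size factors. *Pde2a*, which breaks cyclic AMP down, was at 3.15 and 2.65 FPKM in WT and 26.1 to 41.8 in the knockouts, while *Adcy3*, which makes it, was at 18.6 and 21.0 in WT and 1.15 to 2.14 in the knockouts. Their changes were 3.35 and 3.13 (SE 0.23) for *Pde2a* and -2.85 and -3.12 (SE 0.16) for *Adcy3*. Of 10 listed genes for phospholipase C beta, PI3K gamma and exchange factors of small GTPases, 3 were higher in *Tnfr1*-/- and 2 in *Tnfr2*-/-, with 5 lower in each, against 5 higher and 1 lower in each with median-ratio size factors. *Plcb1* was at 0.0914 and 0.0993 FPKM in WT, 0.934 and 1.30 in *Tnfr1*-/- and 2.35 and 3.27 in *Tnfr2*-/-.

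Of 16 listed makers and degraders of ligands, 3 were higher and 10 lower in each knockout, a share of lower genes near that of the whole table, and with median-ratio size factors 5 were higher in *Tnfr1*-/- and 6 in *Tnfr2*-/-, with 8 lower in each. *Hdc*, which makes histamine, was at 2.65 and 2.18 FPKM in WT, 113 and 133 in *Tnfr1*-/- and 116 and 50.6 in *Tnfr2*-/-, a rise of 5.18 and 4.51 (SE 0.40), in the same samples in which *Hrh2* was higher. *Ltc4s*, which makes the first of the cysteinyl leukotrienes bound by *Cysltr1*, was at 84.6 and 88.4 FPKM in WT and 0.523 to 0.976 in the knockouts, a log2 change of -5.51 and -5.69 (SE 0.13). Between the knockouts limma called 0 of the 70 listed pathway genes on the deposited values, against 0.842% of all genes higher and 0.61% lower. At an unadjusted p under 0.05 there were 17 higher and 6 lower, against 15.9% and 8.01% of all genes. With median-ratio size factors 3 were called higher and 1 lower, against 1.09% and 1.45% of all genes.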

How the data were processed

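MDSC mRNA libraries were prepared with a SMARTER kit and sequenced as single-end reads on an Illumina HiSeq system. The authors deposited one table of FPKM values per gene and sample with a p-value column, which holds their own comparison and was not used. The submitters' processing notes name the build mm10, FastQC and edgeR, while the aligner and the program that computed FPKM are not given in the sources used here. The labels say the cells were sorted and the methods name an isolation kit. As the values are not counts, log2(FPKM + 1), a pseudocount of 1, was fitted with limma 3.58.1 (R 4.3.3; lmFit and eBayes with trend, two-sided) over all 8191 genes and 6 samples in 3 groups. Calls needed a Benjamini-Hochberg adjusted p under 0.05 and over 1.5-fold, the thresholds of the study. The fit was tested on simulated data. Positions are from GENCODE M21 and promoters from RefSeq (GRCm38.p6).

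Members and lists were chosen with earlier results of these data known. Values were named for the 10 highest members, the 6 largest called rises and falls per comparison, each call between the knockouts, the highest of each family and, per pathway list, the largest called rise and fall; other members were named after their values were seen. The values of 1 member and a few other items are not reported here, and that member is counted but not plotted gene by gene. Depth is unknown. Alternatives were a pseudocount of 0.1, a mean of at least 1 FPKM, median-ratio size factors, quantile normalization, only the 2 groups compared, a replicate block, eBayes without trend, adjustment as for 25000 genes and leaving out each sample.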

Additional observations from a re-analysis of the deposited data

How the results depend on the processing

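For *Tnfr2*-/- the median log2 change of the members was -0.48 with a pseudocount of 0.1, -0.49 for members with a mean of at least 1 FPKM, 0.10 with median-ratio size factors and 0.12 after quantile normalization, and for *Tnfr1*-/- it was -0.77, -0.73, 0.036 and 0.022. Members called lower fell to 11 and 12 in *Tnfr2*-/-, and to 11 and 13 in *Tnfr1*-/-, with the last 2 settings. With median-ratio size factors the direction turned in *Tnfr2*-/- for *Adora2b* (0.16), *Gpr107* (0.27), *Lpar5* (0.0833) and *Arrb1* (0.17), and in *Tnfr1*-/- for *Adrb1* (0.0355), *Gpr107* (0.24), *Gpr108* (0.22), *Gpr155* (0.18), *Gpr160* (0.0236), *Lpar5* (0.0365) and *Ptger4* (0.0848). With quantile normalization it turned in *Tnfr2*-/- for *Adora2b* (0.0232), *Gpr107* (0.0722) and *Gpr155* (0.0042), and in *Tnfr1*-/- for *Gpr107* (0.0155) and *Gpr155* (0.14). Between the knockouts, members lower were 0 with a pseudocount of 0.1 and 2 with either scaling, and the median was -0.0021 with median-ratio size factors. Calls there were 0 higher and 0 lower with only the 2 groups compared or adjusted as for 25000 genes, and 1 and 0 by eBayes without trend. By eBayes without trend, 13 members were higher and 7 lower at an unadjusted p under 0.05, against 17.1% and 7.58% of all genes. At an unadjusted p under 0.05 the settings with no call had 12 to 19 members higher and 6 to 10 lower, against 10.3% to 15.9% and 5.97% to 9.25% of all genes. Over the left-out samples they ran from 0 to 7 higher and from 0 to 2 lower.

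Replicate numbers are shared by the genotypes, but the labels do not say whether a number marks a shared experiment, and same-numbered samples deviated together little (correlations 0.022 to 0.046), so a pairing was not established. With the replicate block limma called 0 members higher and 0 lower between the knockouts. It changed no other call. The cause of these changes was not tested. Of 114 called gene comparisons, 21 lost the call and kept the direction with median-ratio size factors, 23 did so after quantile normalization, and 0 to 9 under each other setting. No other call among the members changed direction under any setting. With no counts, depth sets no limit that can be given.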
